A study of Mus musculus with 24 samples.

Results

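The genes described are 8 products of the acute phase and of innate defence measured in mouse macrophages: Ptx3, Saa3, Lcn2, Hp, Cp, Slpi, Lyz2 and Hdc. They were taken from the 18193 genes named by array probe sets that match 1 gene. Each gene is represented by its brightest probe set, judged by the mean of the 24 arrays. All 8 were among the 11785 genes tested, which had a log2 value above 5.08, the overall median, on 3 arrays or more. The cells were bone marrow-derived macrophages of C57Bl/6 mice, washed and then kept for 4 h without serum or in 5% fetal calf, mouse or human serum. Each medium was used without LPS (control) or with 25 ng/ml of it, which gave 8 groups of 3 arrays, 1 from each of the replicate experiments G, H and I. All sera had been heated at 56 °C for 30 min to inactivate complement. LPS is the bacterial lipopolysaccharide that macrophages sense through Toll-like receptor 4. The labels do not say whether the experiments used separate animals, so p-values measure the spread between these samples only.

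The acute phase is the rise in circulating defence proteins that follows infection or injury. Most of these proteins are made by the liver in answer to interleukin 6 and interleukin 1, and macrophages make several of them at the site of infection. Ptx3 is a secreted pattern-recognition protein that coats microbes, and Saa3 is the serum amyloid A form of mouse macrophages and fat tissue. Lcn2 binds the iron-carrying siderophores of bacteria, Hp binds free haemoglobin, and Cp (ceruloplasmin) is a copper-containing oxidase of iron. Slpi inhibits serine proteases, Lyz2 is the lysozyme of macrophages, and Hdc is the enzyme that makes histamine.

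The 250 bases before the transcription start are shown for 4 genes that rose together with LPS and share 1 short match. In the RefSeq promoter table of build GRCm38.p6, 7 of the 8 genes were found, and Hp was not among them. Searched on both strands, the letters TTGCNNAA, a core of sites bound by C/EBP factors, occurred before a start of 5 genes, and they occur in 9.56% of the 32851 promoters of the table. The match is in capitals in each sequence, written 5′ to 3′ on the gene's own strand.
Ptx3: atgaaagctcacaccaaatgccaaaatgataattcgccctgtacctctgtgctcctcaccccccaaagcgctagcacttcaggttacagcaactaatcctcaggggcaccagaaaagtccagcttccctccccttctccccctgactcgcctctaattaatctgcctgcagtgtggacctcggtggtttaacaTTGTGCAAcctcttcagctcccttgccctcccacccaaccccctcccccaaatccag
Saa3: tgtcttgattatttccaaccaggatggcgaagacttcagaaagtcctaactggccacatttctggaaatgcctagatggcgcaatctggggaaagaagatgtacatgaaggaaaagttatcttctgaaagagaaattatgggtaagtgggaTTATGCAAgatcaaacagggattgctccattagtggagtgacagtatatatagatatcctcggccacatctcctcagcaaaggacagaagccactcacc
Lcn2: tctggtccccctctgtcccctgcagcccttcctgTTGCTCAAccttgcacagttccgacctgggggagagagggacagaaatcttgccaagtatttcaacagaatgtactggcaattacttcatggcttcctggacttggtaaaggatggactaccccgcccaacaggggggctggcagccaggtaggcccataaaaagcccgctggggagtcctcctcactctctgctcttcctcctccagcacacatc
Slpi: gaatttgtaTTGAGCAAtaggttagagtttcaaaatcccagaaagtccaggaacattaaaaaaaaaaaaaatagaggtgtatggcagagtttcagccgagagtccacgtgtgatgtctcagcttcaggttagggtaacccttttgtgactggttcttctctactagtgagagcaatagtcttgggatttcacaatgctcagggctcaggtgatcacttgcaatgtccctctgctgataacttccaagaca
The Ptx3 stretch is chr3:66219637-66219886 on the plus strand, and its match lies 57 to 50 bases before the start. That of Saa3 is chr7:46715677-46715926 on the minus strand, with the match 99 to 92 bases before a start inside the RefSeq gene, whose span runs 3939 bases further upstream. The stretches of Lcn2 (chr2:32387740-32387989) and Slpi (chr2:164356508-164356757) are on the minus strand of the same chromosome, with matches 216 to 209 and 241 to 234 bases before the start.

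For Cp the 30 bases around the match, chr3:19957168-19957197 on the plus strand, are shown alone.
Cp: attagttactcTTTTGCAAcattaaattgt
This match lies 70 to 63 bases before 1 of the gene's 2 listed starts. The other start of Cp had a match of TGANTCA, a core of AP-1 sites present in 6.75% of promoters. Close to the first, TATAAA was found, which 12.4% of promoters hold. Neither the NF-kappaB motif searched (1.21% of promoters) nor TTCNNNGAA, a form of STAT sites (7.02%), occurred in these windows, and Hdc and Lyz2 had none of the 5 motifs. Such matches describe letters only.

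The expression values were the log2 values deposited by the authors. Array medians lay between 5.04 and 5.13, correlations between arrays of a group between 0.983 and 0.992, and no arrays were identical. All 8 macrophage markers with a probe set, Csf1r, Cd68 and Adgre1 among them, passed the filter, with a mean log2 value of 10.7 to 11.3 per array. No marker of T cells (0 of 4) or fibroblasts (0 of 5) passed. For dendritic cells 2 of 4 passed, for B cells 1 of 3, and for NK cells 1 of 3 (Prf1, 7.73 to 8.60). Of 12 neutrophil markers 7 passed, with S100a9 between 8.65 and 10.46, while Elane, Cxcr2 and Ctsg stayed at or below 3.56. Of 6 hepatocyte markers 3 passed, among them Apoa1 (5.14 to 6.16) and Ttr (5.15 to 6.24), and albumin lay between 4.48 and 5.13. Of 6 erythroid and megakaryocyte markers 4 passed, with Pf4 between 12.11 and 12.77 and the haemoglobin gene Hba-a1 at or below 4.29. The part of these other markers in the results was not tested. In these bulk samples, fewer cells of a type and less RNA per cell cannot be told apart.

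With LPS, 6 of the 8 genes rose in every medium: Ptx3, Saa3, Lcn2, Cp, Slpi and Hdc. Of all genes tested, limma called 19.8% higher in no serum, 20.8% in calf serum, 17.8% in mouse serum and 18.4% in human serum, at an adjusted p under 0.05. The median difference over the 8 genes, LPS minus control, was 2.36 on the log2 scale in no serum, 2.54 in calf serum, 2.30 in mouse serum and 2.65 in human serum. Over all genes it was -0.19, -0.17, -0.15 and -0.16. For the 6 genes every LPS array lay above every control array in each medium, as it did for 23.2%, 22.5%, 22.1% and 22.4% of all genes in no, calf, mouse and human serum. It follows from this separation that all 24 differences had the same sign in the 3 experiments. Hp and Lyz2 were not called in any medium.

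**Figure D1:**
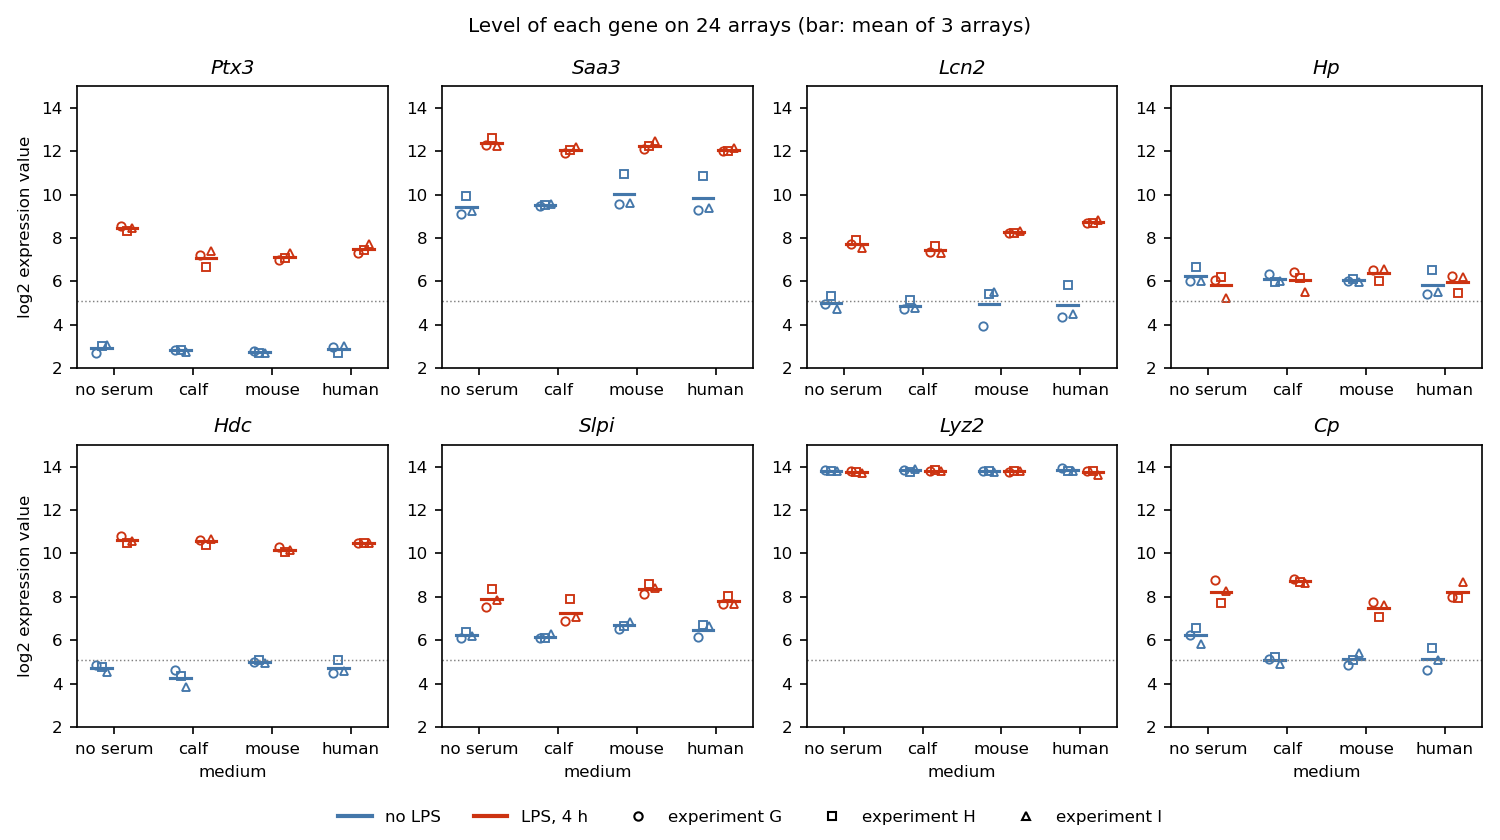
Log2 expression value (vertical axis) of each of the 8 genes in the 4 media, without and with LPS. Points are arrays, horizontal bars are means of 3 arrays, and the dotted line is the filter at 5.08. In 6 genes the LPS arrays stand above the control arrays in every medium, and in Hp and Lyz2 they do not separate.

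**Figure D2:**
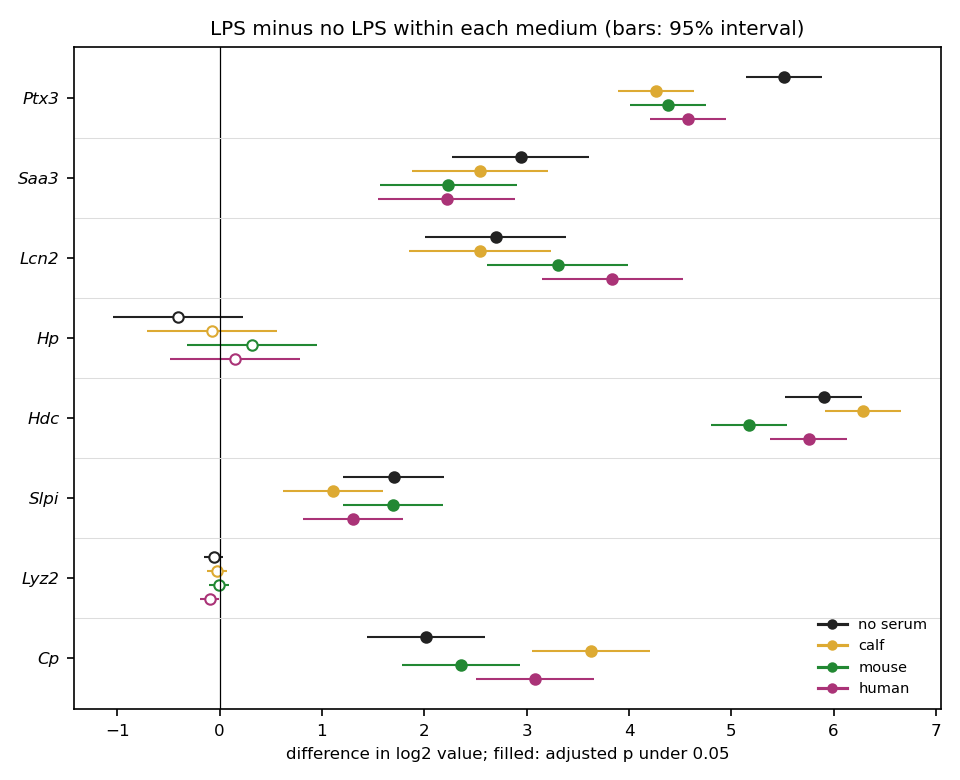
LPS minus control (log2, horizontal axis) for each gene, 1 mark per medium, with the 95% confidence interval of the limma fit. Filled marks have an adjusted p under 0.05: the responses of Hdc and Ptx3 exceed 4, and the intervals of Hp and most of those of Lyz2 include 0.

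Ptx3 (chr3:66219887-66225806) rose with LPS in every medium, and its LPS response was smaller in each serum than without serum. Without LPS its log2 values were 2.69, 3.04 and 3.06 in no serum (G, H, I), 2.83, 2.85 and 2.77 in calf serum, 2.80, 2.72 and 2.70 in mouse serum, and 2.98, 2.71 and 3.04 in human serum. With LPS they were 8.55, 8.30 and 8.48 in no serum, 7.19, 6.65 and 7.40 in calf serum, 6.98, 7.06 and 7.32 in mouse serum, and 7.29, 7.43 and 7.74 in human serum. All control arrays lay below the filter level, and the 3 LPS arrays without serum lay above all 9 with serum. LPS raised Ptx3 by 5.51 ± 0.18 (SE, limma) in no serum, 4.26 in calf serum, 4.38 in mouse serum and 4.58 in human serum, or 45.6-fold, 19.2-fold, 20.8-fold and 23.9-fold. The fold changes start from control values near background.

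Among LPS-treated cells, Ptx3 was lower with each serum than without, by 2.57-fold in calf serum (-1.36 ± 0.18, limma adjusted p = 1.29e-05), 2.51-fold in mouse serum (-1.33, 1.35e-05) and 1.95-fold in human serum (-0.96, 0.00133). It was the only gene of the 8 called in these contrasts, in which 5.85%, 6.58% and 2.64% of all genes were called lower. Without LPS its serum differences were -0.11, -0.19 and -0.03, and none was called. The test of the difference in LPS response gave -1.25 ± 0.25 for calf serum (adjusted p = 0.00775), -1.13 for mouse serum (0.00608) and -0.94 for human serum (0.0308). All genes were called in these tests at 1.8%, 6.46% and 4.96%. The 3 tests share the arrays without serum. The human serum call of the response was lost without any 1 of 7 arrays, which were human serum LPS G or H, no serum LPS G or I, human serum control G or I, or no serum control G (adjusted p 0.0647 to 0.0957). With 2 arrays per group, the response calls of calf serum (adjusted p 0.0594 to 0.161) and human serum (0.0716 to 0.466) were lost without any 1 experiment, and that of mouse serum without experiment G (0.243). The level call of human serum was also lost without G (0.115).

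No difference of Ptx3 between the sera was called with LPS. Human serum minus calf serum was 0.40, with a 95% interval of 0.03 to 0.77 and an adjusted p of 0.233. Mouse serum minus calf serum was 0.04, with an interval of -0.33 to 0.41. The second Ptx3 probe set stayed below the filter on all arrays, with values of 3.60 to 4.97 and LPS differences of 0.12 to 0.68. On it the LPS difference was called in no serum only (limma adjusted p of 0.0534 to 0.63 in the sera), so the Ptx3 response rests on 1 probe set.

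**Figure D3:**
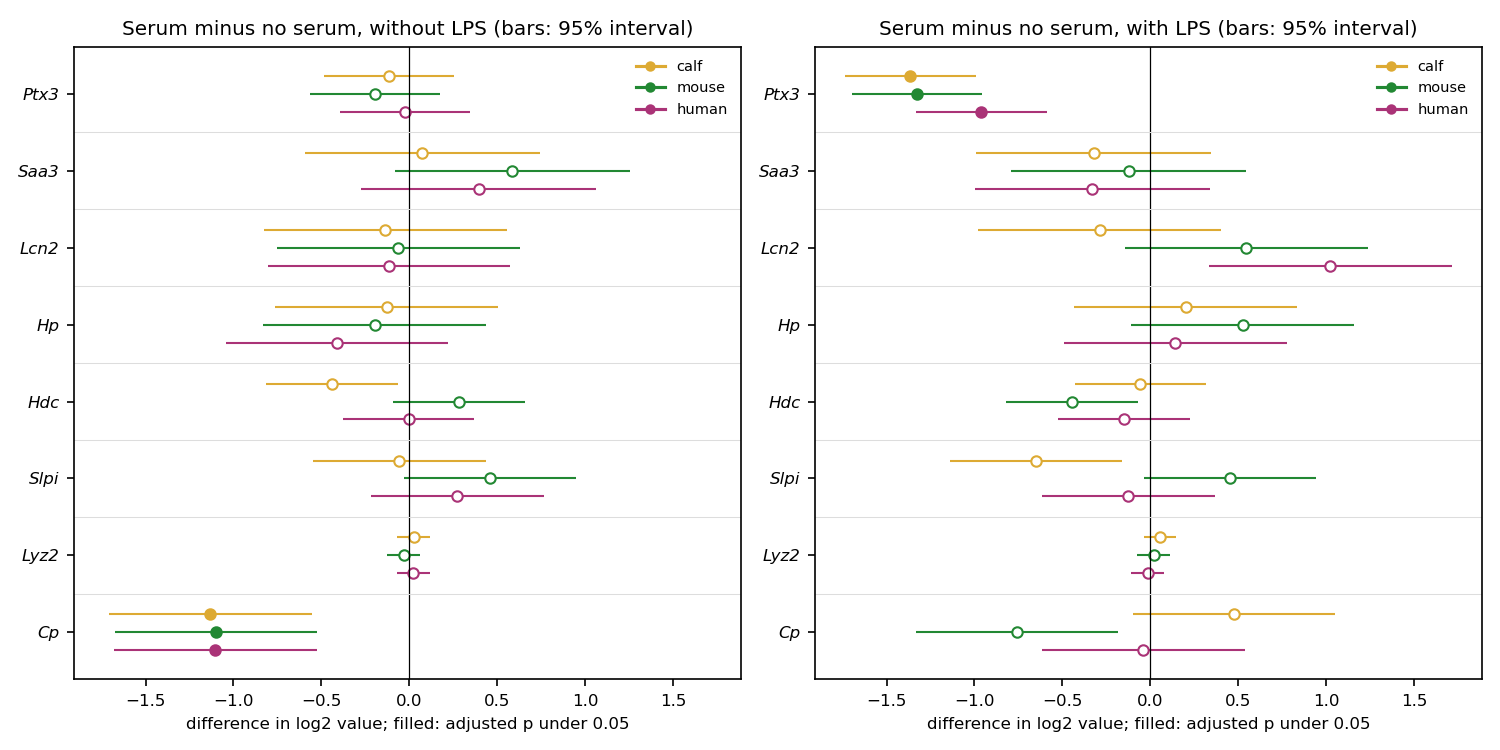
Serum minus no serum (log2, horizontal axis) for each gene in control cells and in LPS-treated cells, 1 mark per serum, with the 95% confidence interval of the limma fit. Filled marks have an adjusted p under 0.05: they are the 3 sera for Cp in control cells and the 3 sera for Ptx3 with LPS.

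Saa3 (chr7:46711998-46719615) was already well above the filter without LPS. Its control values were 9.12, 9.93 and 9.26 in no serum, 9.46, 9.50 and 9.57 in calf serum, 9.55, 10.92 and 9.59 in mouse serum, and 9.27, 10.86 and 9.37 in human serum. With LPS they were 12.30, 12.61 and 12.22 in no serum, 11.91, 12.06 and 12.19 in calf serum, 12.09, 12.22 and 12.46 in mouse serum, and 11.99, 12.00 and 12.16 in human serum. The LPS arrays fell within a narrow band in all media, while 2 control arrays of experiment H stood more than 1 unit above the others of their group. LPS raised Saa3 by 2.94 ± 0.32 (7.68-fold, limma adjusted p = 4.81e-08) in no serum, 2.55 in calf serum, 2.23 in mouse serum and 2.22 in human serum. None of the 3 differences in response from no serum was called, with adjusted p of 0.462 to 0.799.

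Lcn2 (chr2:32384637-32387739) rose most in human serum. Its control values were 4.97, 5.34 and 4.74 in no serum, 4.71, 5.15 and 4.78 in calf serum, 3.95, 5.43 and 5.49 in mouse serum, and 4.35, 5.83 and 4.52 in human serum. With LPS they were 7.72, 7.89 and 7.53 in no serum, 7.35, 7.63 and 7.29 in calf serum, 8.22, 8.24 and 8.31 in mouse serum, and 8.69, 8.69 and 8.83 in human serum. With LPS the 3 arrays of human serum were the highest, followed without overlap by mouse serum, and those of no serum and calf serum overlapped. LPS raised Lcn2 by 2.70 ± 0.33 (6.48-fold) in no serum, 2.54 (5.83-fold) in calf serum, 3.30 (9.88-fold) in mouse serum and 3.84 (14.3-fold) in human serum, with adjusted p of at most 7.78e-07.

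With LPS, Lcn2 was 2.49-fold higher in human than in calf serum (1.31 ± 0.33, limma adjusted p = 0.0172), the only gene of the 8 called in a contrast that called 3.67% of all genes higher. The call was lost without human serum LPS H (0.0509) or I (0.06), calf serum LPS I (0.0634) or the whole of experiment I (0.225). Human serum minus no serum was 1.02 ± 0.33 (adjusted p = 0.0819), and it passed the threshold with the experiment as a replicate block (0.0353) and with the array batch as a block (0.0435). The LPS response differed between human serum and no serum by 1.14 (0.197), or by 1.60 (0.0239) without human serum control H.

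Hp (chr8:109575128-109579172) did not pass the test for LPS in any medium. Its values ran from 5.44 to 6.67 in the control arrays and from 5.26 to 6.59 in the LPS arrays. The LPS differences were -0.40 ± 0.31 in no serum (limma adjusted p = 0.264), -0.08 in calf serum (0.843), 0.32 in mouse serum (0.396) and 0.15 in human serum (0.697). The arrays overlapped in every medium. In human serum the LPS difference was 0.76 (0.0484) without experiment H, whose control array was the highest and whose LPS array the lowest of their groups.

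Cp (chr3:19956933-20009750) showed a serum effect in unstimulated cells. Its control values were 6.25, 6.58 and 5.83 in no serum, 5.13, 5.23 and 4.91 in calf serum, 4.86, 5.09 and 5.42 in mouse serum, and 4.65, 5.63 and 5.08 in human serum. The 3 arrays without serum lay above all 9 with serum. Those with serum lay near the filter level of 5.08, from 4.65 to 5.63, where background limits fold changes. Cp was lower by 2.19-fold in calf serum (-1.13 ± 0.28, limma adjusted p = 0.0215), 2.14-fold in mouse serum (-1.10, 0.0103) and 2.15-fold in human serum (-1.10, 0.0112). It was the only gene of the 8 called in these contrasts, which called 2.27%, 5.34% and 5.69% of all genes lower.

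The 3 Cp contrasts share the arrays without serum, and leaving out no serum control H ended each call (adjusted p 0.0788 to 0.15). Leaving out no serum control G (0.0727), calf serum control G (0.0677) or I (0.111), mouse serum control G (0.0588) or human serum control G (0.0752) ended the call of the serum concerned. Without a whole experiment the calf serum call was lost each time (0.108 to 0.176), that of mouse serum without G (0.107) or H (0.0918), and that of human serum without G (0.155) or I (0.0587). The sign was negative in each experiment for each serum.

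With LPS the Cp values were 8.76, 7.72 and 8.25 in no serum, 8.84, 8.69 and 8.63 in calf serum, 7.78, 7.05 and 7.62 in mouse serum, and 8.0, 7.94 and 8.67 in human serum. LPS raised Cp by 2.02 ± 0.28 (4.06-fold) in no serum, 3.63 (12.4-fold) in calf serum, 2.36 (5.14-fold) in mouse serum and 3.08 (8.48-fold) in human serum, with adjusted p of at most 1.53e-06. The mouse serum arrays had the lowest mean with LPS, and 1 of them lay above the lowest no serum array. Mean Cp without LPS was 6.22 in no serum and 5.09 in calf serum. With LPS the means were 8.24 and 8.72, a difference that was not called. The response in calf serum exceeded that in no serum by 1.61 ± 0.39 (adjusted p = 0.0316), which includes the lower control level. This call was lost without any 1 of 8 of the 12 arrays of the contrast (G or H of calf serum LPS, G or I of calf serum control, G or H of no serum control, H or I of no serum LPS; 0.0604 to 0.102) and without any 1 experiment (0.0799 to 0.296). The difference in response was 1.06 for human serum (0.138) and 0.34 for mouse serum (0.745). For mouse serum it was 0.92 (0.0446) with the mean of the kept Cp probe sets.

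With LPS, Cp was 2.35-fold lower in mouse than in calf serum (-1.23 ± 0.28, limma adjusted p = 0.00736). That contrast called 2.23% of all genes lower and 3.19% higher. The call was lost without mouse serum LPS H (0.0585), experiment H (0.0851) or experiment I (0.0685).

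Cp is represented by 8 probe sets, read on the same arrays. All 8 had a positive LPS difference in the 4 media and a negative serum difference in control cells for the 3 sera. The probe sets with means of 3.25 and 2.80 did not pass the filter, and that with a mean of 5.26 differed by -0.06 in calf serum. Of the 7 other than the one used, limma called 5 higher with LPS in no serum, 6 in calf serum, 6 in mouse serum and 5 in human serum. In control cells it called 3 lower in calf serum, 4 in mouse serum and 3 in human serum. The greater response in calf serum was called for 3 of the 7. For 1 weakly responding probe set it was -0.05. The lower Cp in mouse than in calf serum with LPS was called on 1 of the other 7, negative on 6, and ran from -0.98 to 0.20 (adjusted p 0.0467 to 0.888). The difference in response between mouse serum and no serum ran from -0.07 to 1.32 on these 7 and was called on 1 (1.22, 0.043). That between human serum and no serum ran from -0.08 to 1.48, with a lowest adjusted p of 0.05.

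**Figure D4:**
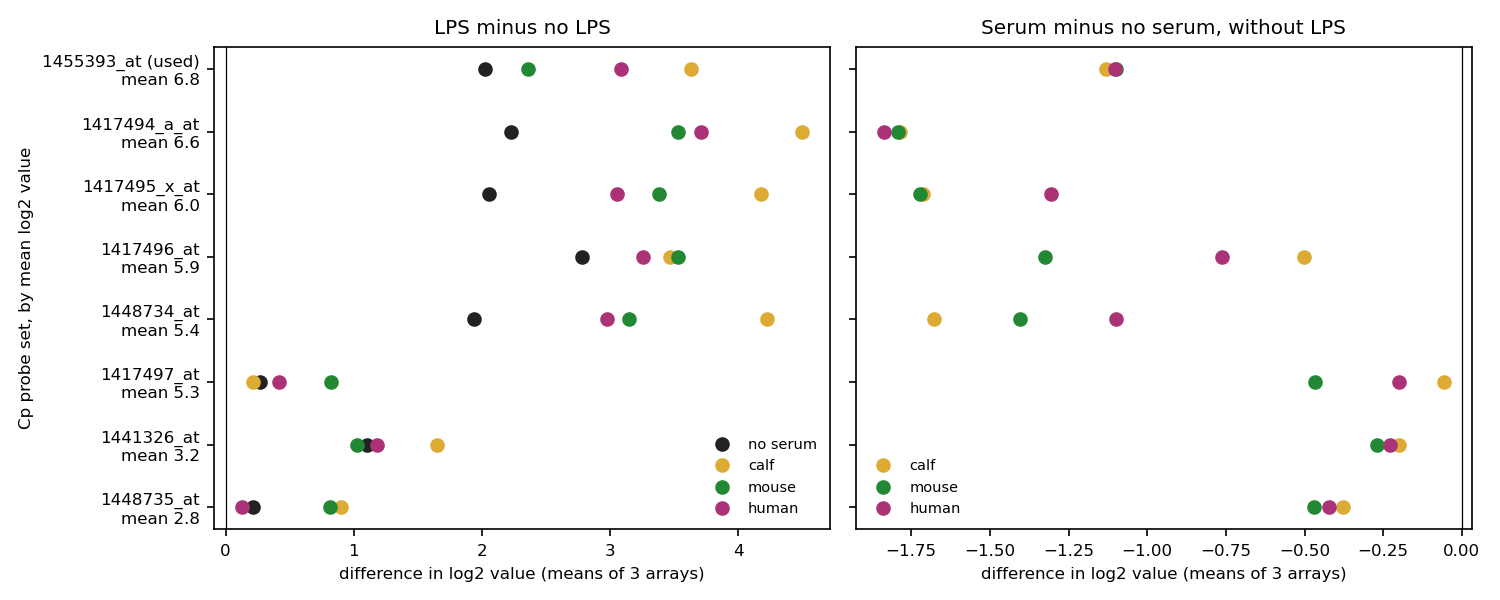
Differences of means of 3 arrays (log2, horizontal axes) for the 8 Cp probe sets, ordered by mean log2 value from the one used at the top: LPS minus control on the left, serum minus no serum in control cells on the right. Points are coloured by medium: all LPS differences are above 0 and all serum differences in control cells below 0. The probe sets with means of 3.25 and 2.80 did not pass the filter.

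Slpi (chr2:164354070-164356507) responded to LPS to a moderate degree. Its control values were 6.10, 6.36 and 6.20 in no serum, 6.13, 6.10 and 6.27 in calf serum, 6.53, 6.65 and 6.86 in mouse serum, and 6.13, 6.71 and 6.63 in human serum. With LPS they were 7.52, 8.38 and 7.86 in no serum, 6.87, 7.90 and 7.05 in calf serum, 8.14, 8.60 and 8.38 in mouse serum, and 7.67, 8.04 and 7.68 in human serum. In each medium the LPS array of experiment H was the highest, and the calf serum arrays were the lowest apart from that one. LPS raised Slpi by 1.70 ± 0.24 (3.25-fold) in no serum, 1.11 (2.15-fold) in calf serum, 1.70 (3.24-fold) in mouse serum and 1.30 (2.47-fold) in human serum, with adjusted p of at most 0.000377.

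With LPS, Slpi was 2.15-fold higher in mouse than in calf serum (1.10 ± 0.24, limma adjusted p = 0.00486), a call that was lost without experiment I (0.184). Calf serum minus no serum was -0.65 ± 0.24 (0.0843). It passed the threshold with the replicate block (0.0212), with the array batch as a block (0.0136), without no serum LPS G (0.0396) and without calf serum LPS H (0.0092). Without that last array human serum also exceeded calf serum (0.0325).

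Lyz2 (chr10:117277541-117282272) was at 13.63 to 13.92 on all 24 arrays, near the top of the scale, whose highest value was 14.84. Group means ran from 13.74 to 13.83. The LPS differences were -0.06, -0.02, -0.01 and -0.09 in no, calf, mouse and human serum, with limma adjusted p of 0.0828 to 0.923. Leaving out human serum LPS H brought the last below the threshold (0.0459). When arrays were centred on the medians of the genes tested, the differences in no, calf and mouse serum turned positive and were called, at 0.19, 0.21 and 0.17. That centring moved differences by up to 0.24. The paralog Lyz1, whose transcript is closely similar, was not called with LPS in any medium either. Whether the scale compresses differences at this level was not tested.

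Hdc (chr2:126593659-126624025) had, on the probe set used, a greater LPS response than the other 7 genes in every medium. Its control values were 4.87, 4.77 and 4.52 in no serum, 4.63, 4.37 and 3.84 in calf serum, 4.98, 5.09 and 4.94 in mouse serum, and 4.48, 5.09 and 4.57 in human serum. With LPS they were 10.80, 10.47 and 10.59 in no serum, 10.63, 10.39 and 10.67 in calf serum, 10.30, 10.07 and 10.15 in mouse serum, and 10.46, 10.48 and 10.48 in human serum. The groups with and without LPS were about 5 to 6 units apart, and the 3 mouse serum arrays were the lowest of the LPS arrays. LPS raised Hdc by 5.90 ± 0.18 (59.8-fold) in no serum, 6.29 (78.1-fold) in calf serum, 5.17 (36.1-fold) in mouse serum and 5.76 (54.1-fold) in human serum. Among all genes these responses ranked 20, 19, 35 and 18 from the highest. The second Hdc probe set gave smaller differences of 3.63, 3.71, 3.26 and 3.45, which are below those of Ptx3. Most control values of Hdc lay below the filter level, so its folds and ranks start near background.

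Mast cells and basophils are the usual sources of histamine. Of 10 markers of these cells with a probe set 3 passed the filter, and their mean per array was 3.64 to 3.90 in control groups and 3.78 to 3.94 with LPS. Cpa3, Fcer1a, Ms4a2, Kit, Mcpt4 and Tpsab1 were at or below 4.04 on all arrays. The others were higher, with Gata2 at 5.36 to 6.21, Tpsb2 at 4.77 to 5.28, Mcpt8 at 4.44 to 5.16 and Cma1 at 4.25 to 5.18. Whether such cells contributed to the Hdc values was not tested. In control cells Hdc was 1.65-fold higher in mouse than in calf serum (0.72 ± 0.18, limma adjusted p = 0.00982), where 5.07% of all genes were called higher. This call was lost without calf serum control I (0.0889), experiment H (0.0875) or experiment I (0.25), and the second probe set gave -0.17. The LPS response in mouse serum minus that in no serum was -0.73 (0.101).

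In 3 contrasts between sera none of the 8 genes was called. These were human minus calf serum in control cells, which called 14.7% of all genes, and mouse minus human serum in control cells (5.25%) and with LPS (2.39%). At an unadjusted p under 0.05 there were 1 (Hdc, 0.44), 0 and 2 (Slpi, 0.58, and Cp, -0.72). Leaving out calf serum control G brought the first to an adjusted p of 0.0334 in limma.

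Some unstimulated arrays of experiment H stood apart in Saa3, Lcn2, Hp and Cp. In experiment H, Saa3 exceeded the mean of G and I by 0.75 in no serum, 1.36 in mouse serum and 1.54 in human serum, and by -0.01 in calf serum. The values in mouse and human serum ranked 7 and 13 among all genes. For Lcn2 the excess was 0.48, 0.71 and 1.39, with 0.40 in calf serum. In mouse serum, however, Lcn2 was lower in H (5.43) than in I (5.49), and the excess came from a low value in G (3.95). For Hp the excess was 0.64, 0.12 and 1.07, with -0.19 in calf serum. In human serum these ranked 23 (Lcn2) and 88 (Hp), while 28.4% of all genes exceeded the value of Hp in mouse serum. Cp had an excess of 0.54 in no serum and 0.76 in human serum, against 0.21 in calf and -0.04 in mouse serum. The calf serum control array of H is the 1 array whose array name carries the batch of another experiment, G. The mean of the neutrophil markers in the H control arrays was 5.75, 5.79, 5.48 and 5.49 in no, calf, mouse and human serum. In G and I it was 5.71 and 5.34 in no serum, and 5.57 and 5.67 in calf serum. It was 5.48 and 5.55 in mouse serum, and 5.14 and 5.35 in human serum. The part of these markers in the pattern was not tested. With LPS the excess of Saa3 was 0.34, 0.01, -0.06 and -0.08 in no, calf, mouse and human serum. Arrays of H departed in other genes with LPS as well. There H minus the mean of G and I was -0.78 for Cp in no serum and -0.65 in mouse serum. It was -0.77 for Hp in human serum and 0.94 for Slpi in calf serum.

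**Figure D5:**
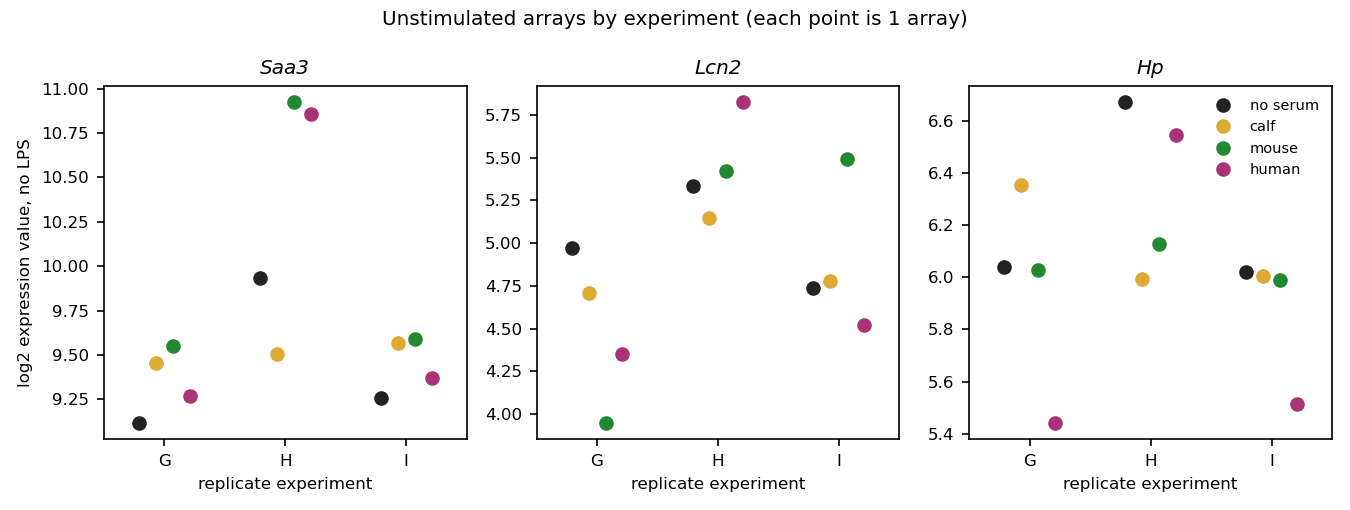
Log2 expression values of Saa3, Lcn2 and Hp (vertical axes) in the 12 control arrays, by replicate experiment. Each point is 1 array, coloured by medium: in experiment H the mouse and human serum arrays of Saa3 lie at 10.92 and 10.86, above all others.

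Over the 24 arrays the 6 genes that rose were correlated with each other at r of 0.716 (Slpi and Cp) to 0.983 (Ptx3 and Hdc). These values mostly restate the split by LPS, which all arrays share. The genes most like each member were Cish (r = 0.992) and Filip1l (0.991) for Ptx3, Ccl5 (0.985) and Ms4a4c (0.978) for Saa3, and Tal1 and Gdap10 (both 0.968) for Lcn2. They were Il1a (0.996) and Il6 (0.995) for Hdc, Asf1a (0.931) and Rcan1 (0.922) for Slpi, and Mier1 (0.967) and Vrk1 (0.965) for Cp. Hp and Lyz2 had weaker neighbours, Evi5l (0.637) and Grn (0.806).

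Of 28 other acute-phase proteins, 24 had a probe set and 11 passed the filter. With LPS, limma called 8, 8, 6 and 7 higher in no, calf, mouse and human serum, and 1, 1, 0 and 0 lower. Of all genes, 19.8%, 20.8%, 17.8% and 18.4% were called higher and 39.1%, 37.8%, 33.8% and 35.5% lower. The complement factor Cfb rose by 2.33, 3.07, 3.05 and 2.63 in no, calf, mouse and human serum. Hamp, which encodes the iron hormone hepcidin, rose by 1.74, 1.05, 2.14 and 1.20. Its means were 3.17, 3.50, 3.44 and 3.60 in control cells of no, calf, mouse and human serum. With LPS they were 4.90, 4.55, 5.58 and 4.80, and only that of mouse serum lay above the filter level. The rise of Hamp therefore starts from control values near background. The metallothionein Mt1 fell by 0.85 in no serum and 0.30 in calf serum, with 0.22 and 0.25 in mouse and human serum, while Mt2 rose in all media. The list's median difference was 0.99, 1.05, 0.40 and 0.59, against -0.19, -0.17, -0.15 and -0.16 over all genes. The filter bears on which members are counted.

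Among 29 other antimicrobial and granule proteins 20 were tested. Limma called 10, 9, 9 and 9 higher with LPS in no, calf, mouse and human serum, and 1 lower in each. The list's medians were 0.42, 0.39, 0.25 and 0.44, against -0.19, -0.17, -0.15 and -0.16 over all genes. Of all genes, 19.8%, 20.8%, 17.8% and 18.4% were called higher and 39.1%, 37.8%, 33.8% and 35.5% lower. Acod1, which makes the antibacterial metabolite itaconate, rose by 4.26, 5.84, 4.04 and 3.81. Nos2, the inducible nitric oxide synthase, rose by 4.30, 4.77, 4.86 and 4.24, from control means of 4.11 to 4.35, below the filter level. It passed the filter through its LPS arrays, so the filter bears on the counts and medians of this list too. Slc11a1, a metal transporter of the phagosome, was the gene that fell, by 0.58, 0.59, 0.79 and 0.78. Neither S100a8 nor S100a9, which neutrophils also make in quantity, was called.

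Of 21 receptors and processing partners of the 8 products, 16 were tested, with 5, 4, 4 and 4 higher and 7, 6, 4 and 4 lower with LPS, and medians of -0.20, -0.12, -0.08 and -0.05. Of all genes, 39.1%, 37.8%, 33.8% and 35.5% were called lower, shares near those of this list. The shares called higher were 19.8%, 20.8%, 17.8% and 18.4%, and the medians -0.19, -0.17, -0.15 and -0.16. Fpr2, a receptor for serum amyloid A, rose by 4.35, 5.79, 3.75 and 3.63. Slc40a1, the iron exporter ferroportin that acts with ceruloplasmin, fell by 3.71, 3.71, 2.09 and 2.11 in no, calf, mouse and human serum. Cd163, the receptor for haptoglobin bound to haemoglobin, was not called in any medium. Hnmt, which degrades histamine, fell by 0.62 in no serum and 0.87 in calf serum, and was -0.22 in mouse and -0.52 in human serum.

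Of 18 known inducers of acute-phase genes, 16 were tested. Limma called 12, 13, 11 and 13 higher and 3 lower in each medium, with medians of 1.54, 1.31, 1.49 and 1.86. Of all genes, 19.8%, 20.8%, 17.8% and 18.4% were called higher and 39.1%, 37.8%, 33.8% and 35.5% lower. The medians over all genes were -0.19, -0.17, -0.15 and -0.16. Il6 rose by 9.60, 9.37, 9.0 and 9.24, and Nfkbiz, an NF-kappaB cofactor, by 3.96, 4.77, 4.29 and 3.67. The rise of Il6 starts from control means of 2.22 to 2.37, near background. Such genes passed the filter through their LPS arrays, which bears on the counts and medians of this list. Of the C/EBP factors, whose core letters are in capitals in the sequences above, Cebpd rose by 2.25, 2.89, 1.79 and 2.09 and Cebpa fell by 4.10, 4.40, 3.86 and 3.28. Group means of Cebpb moved less. They were 11.50, 10.87, 12.23 and 11.74 in control cells of no, calf, mouse and human serum, and 11.68, 11.81, 12.49 and 12.35 with LPS. The receptor chains Il6ra and Il6st fell in all media.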

How the data were processed

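RNA was labelled with biotin and hybridised to Affymetrix mouse arrays, 1 sample per array. Values were the log2 expression values per probe set that the authors deposited. GCRMA and Partek are given, with no version, per the submitters' processing notes, and the log base was inferred from the range of 1.48 to 14.84. Raw scans were not analysed here.

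Of 45101 probe sets, 64 were controls, 34945 named 1 gene, 932 several and 9160 none, by the platform annotation. Kept probe sets exceeded 5.08 on at least 3 of 24 arrays, and the kept probe set with the highest mean stood for a gene. With limma 3.58.1 in R 4.3.3, a mean for each group was estimated from all 24 arrays for 11785 genes, with trended and robust variances. The 19 contrasts were adjusted by Benjamini-Hochberg over all genes, two-sided, at 0.05, which made 152 tests of the 8 genes. The code was tested on simulated data. For arrays their number, 3 per group, limits the precision.

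The genes named are the 8 members, the 2 genes most correlated with each, and examples from 4 gene lists. The members and the lists were chosen with earlier results of these data known.

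Replicate letters name the experiments. Over 84 same-letter array pairs, deviations from the group mean correlated at a median of 0.062 (-0.046 to 0.183), with 17 above 0.1. The replicate block was therefore an alternative. Others were the array batch read from array names as a block, other filters, centring, quantile normalization, probe sets, an untrended fit, and leaving out each array or experiment.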

Additional observations from a re-analysis of the deposited data

Results flagged for a closer look

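The LPS response of Ptx3 differed between each serum and no serum, by -1.25 in calf serum, -1.13 in mouse serum and -0.94 in human serum (log2, limma interaction contrasts). The LPS response of Cp differed between calf serum and no serum by 1.61. Its means there were 5.09 and 6.22 in control cells, and 8.72 and 8.24 with LPS, where the difference was not called. These 4 of 24 tests of a difference in LPS response passed the adjusted threshold of 0.05, and each had the same sign in the 3 experiments. No test for outlying arrays was run, but samples were left out in turn. Each of these calls was lost without experiment G. Those of Ptx3 in human serum and of Cp were also lost without certain single arrays, as given above.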

How the results depend on the processing

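With LPS, the 24 calls of 6 genes were kept in 408 of 408 alternative values that used the same probe sets or their mean, with an adjusted p of at most 0.0117. On other probe sets calls were lost for Ptx3 in the 3 sera and for Cp on 2 of 7. Of 2899 alternative values of single genes, 2791 kept their side of the threshold, and those called kept their direction. Another 87 lost the call (52 by leaving out samples, 34 by another probe set), 15 gained it and 6 reversed. A reversal was counted only where the main or the alternative value was called, so sign changes of uncalled values are among the 2791. The replicate block gave 2 called genes in place of 1 for calf minus no serum and for human minus no serum with LPS, through Slpi and Lcn2, and changed no other call of the 8 genes. The array batch as a block gave the same counts, 2 and 2. With the mean of the kept probe sets, mouse minus calf serum in control cells had 0 called genes and the LPS response in mouse minus no serum had 2, in place of 1 each. Reversed values were those of Lyz2 with LPS, centred on the genes tested (0.1874 in no serum, 0.2119 in calf and 0.173 in mouse serum; a setting chosen after seeing the data), Hdc on its second probe set (mouse minus calf serum, control, -0.1725), and Cp on 1 probe set (mouse minus calf serum with LPS 0.2011, response in calf minus no serum -0.0526). The cause was not tested.

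Leaving out samples, the members called ranged from 0 to 1 for each serum minus no serum in control cells, 1 to 2 for calf and mouse and 0 to 1 for human minus no serum with LPS. Between sera they ranged from 0 to 1 for mouse and human minus calf serum in control cells, and 0 to 2 with LPS. For the LPS response minus that in no serum the ranges were 0 to 2 in calf, 0 to 1 in mouse and 0 to 2 in human serum. All genes called ranged from 112 to 334 (calf), 666 to 1028 (mouse) and 537 to 1013 (human) for serum minus no serum in control cells, and from 513 to 1239, 783 to 1302 and 264 to 511 with LPS. Between sera they ranged from 592 to 928 (mouse minus calf), 852 to 1522 (human minus calf) and 208 to 530 (mouse minus human) in control cells, and from 278 to 592, 293 to 736 and 30 to 189 with LPS. For the LPS response they ranged from 50 to 249, 331 to 691 and 215 to 575. Leaving out an experiment leaves 2 arrays per group.

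Most control values of Ptx3, Hdc and Lcn2 lie below the filter, where signal over background limits fold changes. Control values of Cp in the sera lie near the filter, so its fold changes there are limited as well. With 3 arrays per group, values that missed the threshold do not show equal levels.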
